A study of Mus musculus with 8 samples.

Results

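The genes described here encode proteins by which basal epithelial cells hold on to their basement membrane, together with podoplanin. The 8 genes are a list of names that uses no threshold on their values, although it was drawn up with earlier results of these data known: Lama3 and Lamb3 (chains of laminin-332), Itga6, Itgb4, Itga3 and Itgb1 (chains of its integrin receptors), Dst (dystonin) and Pdpn (podoplanin). They are 8 of 25466 genes in the deposited table, and all 8 passed the filter on low counts that 17006 genes passed. RNA-seq was performed on medullary thymic epithelial cells (mTECs), the epithelial cells of the thymic medulla that present self-antigens to developing T cells. All mTECs came from thymi of wild-type (wt) BL6N6 mice, aged 4 to 6 weeks, and no group carried a transgene or a treatment. Cells were digested from the tissue and sorted as CD45neg Epcampos CDR1neg, then by surface Tspan8, a tissue-restricted antigen, and by MHCII. This gave 4 subsets with 2 biological replicates each: Tspan8negMHCIIlow, Tspan8negMHCIIhigh, Tspan8posMHCIIhigh and Tspan8posMHCIIlow. None of the 8 proteins was used in the gate. The labels do not say how many mice a replicate holds, nor whether the replicate numbers link libraries across subsets.

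Laminin-332 is a heterotrimer that includes the α3 and β3 chains, encoded by Lama3 and Lamb3, and is a major adhesive ligand in the basement membrane of stratified epithelia. Integrin α6β4 binds it from inside hemidesmosomes, where the cytoplasmic plaque proteins plectin and the epithelial isoform of dystonin (BPAG1e) link the receptor to keratin filaments, and integrin α3β1 binds it outside hemidesmosomes. Podoplanin is a mucin-type membrane glycoprotein that binds ezrin and moesin as well as the chemokine CCL21, and in the thymus it marks epithelial cells near the corticomedullary junction. It is also abundant on fibroblastic stromal cells and on lymphatic endothelium. The comparisons below ask how the transcripts of this adhesion machinery are distributed over Tspan8 and MHCII subsets. MHCII is used in the field as a measure of mTEC maturation. The study states, however, that late mTECs lower MHCII again, so that MHCIIlow cells include both immature and late stages.

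All 8 genes had their highest mean level in Tspan8negMHCIIlow mTECs. Levels are given as CPM, a gene's count as a share of its library total after scaling by the trimmed mean of M-values (TMM). In 6 of the 8 (Lama3, Lamb3, Itgb4, Itgb1, Dst and Pdpn) both Tspan8negMHCIIlow libraries lay above the other 6 libraries, an arrangement shown by 17.8% of all tested genes. The spread between the genes was wide. Lamb3 and Pdpn were several-fold higher in Tspan8negMHCIIlow than in any other subset, whereas the mean levels of Itga6 and Itga3 in Tspan8negMHCIIlow and Tspan8negMHCIIhigh differed by less than the replicates did. The 8 genes together took 0.290% of the counts in Tspan8negMHCIIlow, 0.138% in Tspan8negMHCIIhigh, 0.0991% in Tspan8posMHCIIhigh and 0.121% in Tspan8posMHCIIlow. In bulk samples such as these, fewer cells that express a gene and less RNA of it per cell cannot be told apart.

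**Figure D1:**
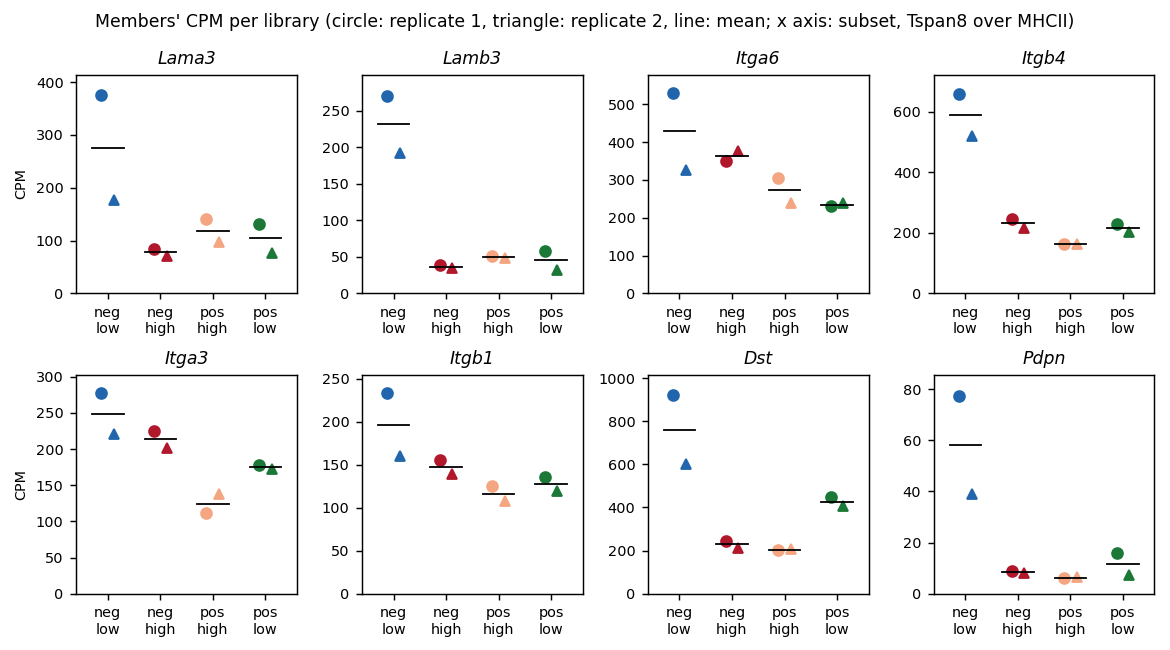
CPM (y axis, linear from 0) of each member in each library, with the subsets on the x axis named by Tspan8 (neg, pos) over MHCII (low, high). Circles are replicate 1, triangles are replicate 2 and the line is the mean of both. Lamb3 lay at 271 and 192 CPM in Tspan8negMHCIIlow and between 31.8 and 58.3 CPM in all other libraries, whereas Itga3 ranged only from 111 to 277 CPM over all 8.

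Library totals ranged from 1941518 to 7783841 counts, and a member's count in a library ranged from 29 (Pdpn) to 3283 (Dst), so that no member was near the floor of 3 counts used here, which corresponds to 0.385 to 1.65 CPM. CPM compares a gene between libraries but not between genes, and levels per length are given where genes are compared with each other. The sorted markers followed the gates: Tspan8 lay between 3.65 and 14.6 CPM in Tspan8neg libraries and between 348 and 405 CPM in Tspan8pos libraries, and H2-Ab1, an MHCII chain, was higher in MHCIIhigh than in MHCIIlow at both Tspan8 levels. Tspan8negMHCIIlow stood apart in 2 ways. Its replicates differed most, with a chi-square statistic of 7.68 per gene against 2.84 to 4.28 in the other subsets, and it held the most RNA of thymocyte and B cell markers. All 8 members were higher in its replicate 1 than in its replicate 2, by 1.26-fold (Itga3, Itgb4) to 2.14-fold (Lama3). Those marker values are given beside the results below.

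The upstream sequences of 4 members are shown because the genes differ in their response, with Pdpn and Lamb3 showing the largest fold changes and Itgb1 and Itga3 some of the smallest. RefSeq promoter windows were found for 5 of the 8 members (Dst, Lamb3, Pdpn, Itgb1 and Itga3), and each line below gives the 250 bases before a transcription start on the coding strand, 5′ to 3′, with CpG dinucleotides in capitals (build GRCm38.p6). The windows are chr4:143299565-143299814 on the minus strand for Pdpn, chr1:193301744-193301993 on the plus strand for Lamb3, chr8:128685404-128685653 on the plus strand for Itgb1 and chr11:95076715-95076964 on the minus strand for Itga3.
Pdpn: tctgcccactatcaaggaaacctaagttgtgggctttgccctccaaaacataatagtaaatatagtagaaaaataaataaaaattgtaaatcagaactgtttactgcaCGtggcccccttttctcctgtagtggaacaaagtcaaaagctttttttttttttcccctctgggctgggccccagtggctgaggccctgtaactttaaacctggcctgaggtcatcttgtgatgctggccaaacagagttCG
Lamb3: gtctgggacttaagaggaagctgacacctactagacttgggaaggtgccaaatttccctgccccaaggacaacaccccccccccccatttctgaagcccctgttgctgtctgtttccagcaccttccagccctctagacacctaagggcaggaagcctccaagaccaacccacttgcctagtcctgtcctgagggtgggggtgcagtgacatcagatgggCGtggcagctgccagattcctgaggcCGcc
Itgb1: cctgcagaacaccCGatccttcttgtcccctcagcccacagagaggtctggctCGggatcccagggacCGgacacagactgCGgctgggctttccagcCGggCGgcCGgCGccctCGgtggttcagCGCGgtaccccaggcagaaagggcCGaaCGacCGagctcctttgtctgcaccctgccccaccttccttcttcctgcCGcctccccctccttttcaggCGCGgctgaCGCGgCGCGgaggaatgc
Itga3: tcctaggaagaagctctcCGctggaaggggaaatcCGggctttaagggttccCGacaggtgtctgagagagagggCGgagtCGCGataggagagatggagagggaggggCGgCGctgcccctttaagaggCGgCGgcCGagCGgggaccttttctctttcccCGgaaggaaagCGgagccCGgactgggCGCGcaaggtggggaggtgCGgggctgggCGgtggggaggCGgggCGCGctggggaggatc

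The Pdpn window held 2 CpG and the Lamb3 window 2, against 21 in the Itgb1 window and 22 in the Itga3 window. The median over all 32851 windows was 6, with quartiles of 2 and 16. The GC content was 43.2% for Pdpn, 58.8% for Lamb3, 68.0% for Itgb1 and 67.6% for Itga3, beside a median of 52.4%. Of the other windows, a further start of Lamb3 had 3 CpG, a further start of Itga3 had 5, and the Dst starts had 22 and 5, so that the number of CpG did not divide the genes by the size of their fold change. Both strands were searched for the AP-1 element TGANTCA and the p63 half-site. Neither was found in any window of the 5 members, while 6.75% and 7.13% of all windows held them. These counts describe sequence letters in this window and say nothing about factor binding.

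Lamb3 (GRCm38 chr1:193207699-193343878, plus strand) encodes the β3 chain, which is found in laminin-332. Its CPM was 271 and 192 in the Tspan8negMHCIIlow replicates, 38.5 and 34.7 in Tspan8negMHCIIhigh, 51.4 and 48.6 in Tspan8posMHCIIhigh, and 58.3 and 31.8 in Tspan8posMHCIIlow. The Tspan8negMHCIIlow libraries lay far above all others, and the other 3 subsets could not be put in an order, since the Tspan8posMHCIIlow libraries lay to either side of those of both MHCIIhigh subsets. Lamb3 fell in Tspan8negMHCIIhigh against Tspan8negMHCIIlow by 2.66 on the log2 scale (SE 0.25, adjusted p = 1.52e-05, edgeR's quasi-likelihood test with Benjamini-Hochberg adjustment), a 6.33-fold difference. It was 5.46-fold lower in Tspan8posMHCIIlow than in Tspan8negMHCIIlow (log2 fold change -2.45, SE 0.26, adjusted p = 2.61e-05).

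Lama3, on chromosome 18, encodes the α3 chain. Its CPM was 376 and 176 in Tspan8negMHCIIlow, 84.4 and 71.3 in Tspan8negMHCIIhigh, 140 and 97.7 in Tspan8posMHCIIhigh, and 131 and 77.0 in Tspan8posMHCIIlow. Both Tspan8negMHCIIlow libraries were above the rest, but they differed from each other by 2.14-fold, the largest replicate ratio of any member in that subset. Lama3 was 3.54-fold lower in Tspan8negMHCIIhigh (log2 fold change -1.83, SE 0.34, adjusted p = 0.00137) and 2.72-fold lower in Tspan8posMHCIIlow (log2 fold change -1.45, SE 0.34, adjusted p = 0.00599) than in Tspan8negMHCIIlow. The first call was lost without either Tspan8negMHCIIhigh replicate (log2 fold changes -1.86 and -1.61, edgeR adjusted p = 0.0115 and 0.0247). The second was lost without replicate 1 of Tspan8negMHCIIlow (-0.83) or replicate 2 of Tspan8posMHCIIlow (-1.07), with the 4 compared libraries alone (adjusted p = 0.0227) and with DESeq2 (adjusted p = 0.0176). Exons of Gm29200 overlap Lama3 on the opposite strand, and since the sources name different library kits, reads of the pair may not be told apart.

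Within a library, chains can be compared per length. The Lama3 to Lamb3 ratio was 0.854 and 0.564 in Tspan8negMHCIIlow and between 1.24 and 1.68 in the other 6 libraries. With the length of the longest transcript in place of the summed exon length, the ratio was 0.640 and 0.423 in Tspan8negMHCIIlow and between 0.929 and 1.26 elsewhere. It was lowest in Tspan8negMHCIIlow by either length, but which chain was the more abundant in the other subsets depended on that choice. Transcript ratios say nothing about assembled trimers.

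**Figure D2:**
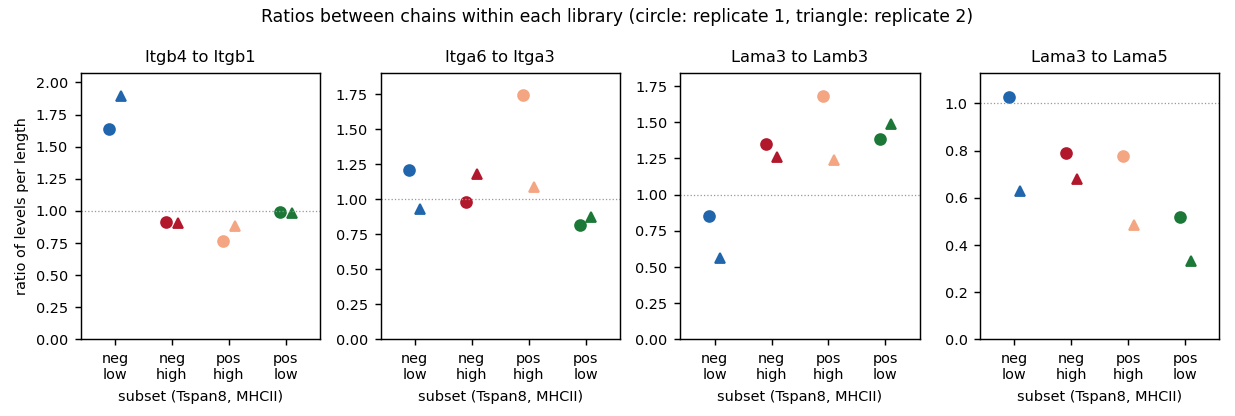
Ratio of levels per length between paired chains (y axis, linear from 0, dotted line at 1) in each library, by subset (x axis), with circles for replicate 1 and triangles for replicate 2. The Itgb4 to Itgb1 ratio was 1.64 and 1.90 in Tspan8negMHCIIlow and at most 0.991 elsewhere, and the Lama3 to Lamb3 ratio was 0.854 and 0.564 in Tspan8negMHCIIlow and at least 1.24 elsewhere.

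Itgb4 (chr11:115974709-116008412, plus strand) encodes the β4 subunit, which pairs only with α6 and carries the long cytoplasmic domain that docks plectin. Its CPM was 657 and 521 in Tspan8negMHCIIlow, 245 and 217 in Tspan8negMHCIIhigh, 165 and 163 in Tspan8posMHCIIhigh, and 230 and 202 in Tspan8posMHCIIlow. The first subset stood clear of the rest, with replicates that differed by only 1.26-fold. Itgb4 was 2.55-fold lower in Tspan8negMHCIIhigh (log2 fold change -1.35, SE 0.15, adjusted p = 4.43e-05) and 2.74-fold lower in Tspan8posMHCIIlow (log2 fold change -1.45, SE 0.15, adjusted p = 2.36e-05). Both calls held under every alternative computed, including without each library in turn. Exons of B230344G16Rik lie opposite to Itgb4.

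Itga6 (chr2:71745616-71858416, plus strand), the α partner of Itgb4, was spread more evenly. Its CPM was 531 and 326 in Tspan8negMHCIIlow, 350 and 376 in Tspan8negMHCIIhigh, 306 and 238 in Tspan8posMHCIIhigh, and 230 and 238 in Tspan8posMHCIIlow. The 2 Tspan8neg subsets overlapped, as did the 2 Tspan8pos subsets. Its log2 fold change was -0.24 (SE 0.21, adjusted p = 0.381) in Tspan8negMHCIIhigh against Tspan8negMHCIIlow, with a 95% confidence interval from -0.69 to 0.21. In Tspan8posMHCIIlow against Tspan8negMHCIIlow it was -0.87 (SE 0.21, adjusted p = 0.00653), which passed the limit on p but not the fold limit of 1 on the log2 scale.

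Itga3 (chr11:95044474-95076801, minus strand) and Itgb1 (chr8:128685654-128733200, plus strand) encode the chains of α3β1, and β1 also pairs with many other α subunits. Itga3 had 277 and 221 CPM in Tspan8negMHCIIlow, 226 and 201 in Tspan8negMHCIIhigh, 111 and 138 in Tspan8posMHCIIhigh, and 178 and 172 in Tspan8posMHCIIlow. Itgb1 had 234 and 160 CPM in Tspan8negMHCIIlow, 156 and 139.5 in Tspan8negMHCIIhigh, 125 and 107 in Tspan8posMHCIIhigh, and 135 and 119 in Tspan8posMHCIIlow. In both genes, as in Itga6, all 4 Tspan8neg libraries lay above all 4 Tspan8pos libraries, an arrangement of 3 of the 8 members and of 12.9% of all tested genes. Neither was called in a comparison within a Tspan8 or MHCII level. The largest fold change of Itga3 there was in Tspan8posMHCIIhigh against Tspan8negMHCIIhigh (log2 fold change -0.78, SE 0.16, adjusted p = 0.00277), and the largest of Itgb1 was -0.64 (SE 0.19, adjusted p = 0.018) in Tspan8posMHCIIlow against Tspan8negMHCIIlow.

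The balance of the β chains also differed between subsets. Per length, Itgb4 exceeded Itgb1 by 1.64- and 1.90-fold in the Tspan8negMHCIIlow libraries, whereas the ratio was between 0.765 and 0.991 in the other 6 libraries. With the longest transcript it was 1.73 and 2.005 in Tspan8negMHCIIlow and between 0.808 and 1.05 elsewhere, above 1 in both Tspan8posMHCIIlow libraries. The Itga6 to Itga3 ratio showed no such separation, with 1.21 and 0.934 in Tspan8negMHCIIlow, 0.982 and 1.18 in Tspan8negMHCIIhigh, 1.75 and 1.09 in Tspan8posMHCIIhigh, and 0.816 and 0.875 in Tspan8posMHCIIlow. These per-length levels use the summed exon length of all isoforms, and the mean level of Itga6 over all libraries rose from 116 to 193 when the length of the longest transcript was used, by which the Itga6 to Itga3 ratio lay between 1.46 and 3.11 in all libraries.

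**Figure D3:**
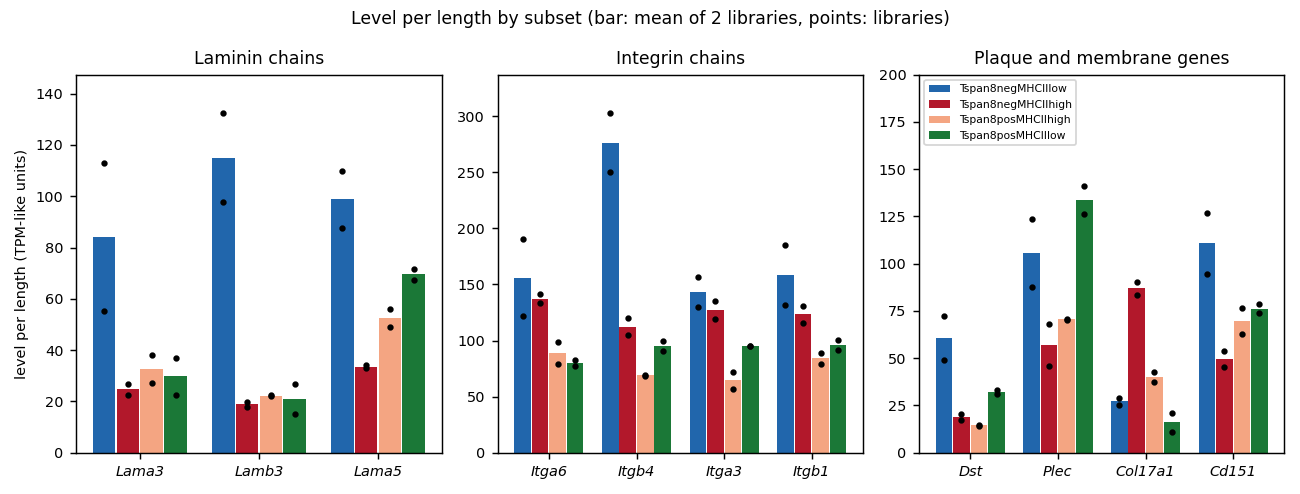
Level per length (y axis, TPM-like units computed from the counts and the summed exon length) of laminin chains, integrin chains, and plaque and membrane genes in the 4 subsets. Bars are means of 2 libraries and points are the libraries. In Tspan8negMHCIIlow Itgb4 lay at 276 ± 37.4 (SD, n = 2) and Itga6 at 156 ± 48.5, an order that turned with the longest transcript (249 and 260.4), and Col17a1 peaked in Tspan8negMHCIIhigh (87.0 ± 4.82).

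Dst (chr1:33908225-34308661, plus strand) gives rise to epithelial, neuronal and muscle isoforms of the cytolinker dystonin, which the gene-level counts do not separate. Its CPM was 922 and 601 in Tspan8negMHCIIlow, 245 and 213 in Tspan8negMHCIIhigh, 201.5 and 205 in Tspan8posMHCIIhigh, and 450.2 and 405 in Tspan8posMHCIIlow. All 4 MHCIIlow libraries lay above all 4 MHCIIhigh libraries. It was 3.33-fold lower in MHCIIhigh than in MHCIIlow among Tspan8neg cells (log2 fold change -1.74, SE 0.19, adjusted p = 4e-05) and 2.10-fold lower among Tspan8pos cells (log2 fold change -1.07, SE 0.19, adjusted p = 0.0026). The second call lay close to the fold limit and was lost on leaving out any 1 of its 4 libraries. Dst also differed between the MHCIIlow subsets, where the Tspan8pos cells had a log2 fold change of -0.84 (SE 0.19, adjusted p = 0.00403), short of the fold limit. Exons of A930005N03Rik and Gm26788 lie opposite to Dst.

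Pdpn (chr4:143267431-143299564, minus strand) was the member with the largest contrast and the fewest counts. Its CPM was 77.2 and 39.1 in Tspan8negMHCIIlow, 8.94 and 8.07 in Tspan8negMHCIIhigh, 5.97 and 6.502 in Tspan8posMHCIIhigh, and 15.9 and 7.23 in Tspan8posMHCIIlow. Even the lower Tspan8negMHCIIlow library had more than any other library, while Tspan8posMHCIIlow overlapped Tspan8negMHCIIhigh. Pdpn was 6.83-fold lower in Tspan8negMHCIIhigh (log2 fold change -2.77, SE 0.37, adjusted p = 0.000161), 5.71-fold lower in Tspan8posMHCIIlow (-2.51, SE 0.39, adjusted p = 0.000425) and 9.26-fold lower in Tspan8posMHCIIhigh (-3.21, SE 0.39, adjusted p = 6.79e-05) than in Tspan8negMHCIIlow. The call in Tspan8posMHCIIlow was lost without its replicate 2 (log2 fold change -1.86, adjusted p = 0.0152). Per length, Pdpn reached 105 ± 46.0 (SD, n = 2) in Tspan8negMHCIIlow, in the range of Lamb3 (115 ± 24.6) and Lama3 (84.1 ± 41.0), although its CPM was the lowest of all members.

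By comparison, within MHCIIlow 4 of the 8 members were called lower in Tspan8pos than in Tspan8neg mTECs and none higher (Itgb4, Lama3, Lamb3 and Pdpn). Of all tested genes, 9.34% were called lower and 12.1% higher. A call required an adjusted p under 0.01 and a log2 fold change of at least 1 in size. All 8 members had negative fold changes, with a median of -1.16 beside -0.03 over all tested genes. The count was 3 with DESeq2, 2 without replicate 2 of Tspan8posMHCIIlow, where Lama3 and Pdpn were not called, and 6 without replicate 2 of Tspan8negMHCIIlow, where Itga6 and Dst were also called. Within MHCIIhigh, where 7.45% of all genes were called lower and 11.0% higher, edgeR called 0 of the 8 members and so did DESeq2, and 2 (Itga3 and Itgb4, both lower) had an unadjusted p under 0.05. The members' median was -0.38 beside -0.03, and Lama3 and Lamb3 had values above 0 (0.61, SE 0.34, and 0.45, SE 0.25, adjusted p = 0.174 and 0.18).

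Between MHCII levels, 5 of the 8 members were called lower in MHCIIhigh than in MHCIIlow among Tspan8neg cells (Itgb4, Lama3, Lamb3, Dst and Pdpn) against 9.67% of all tested genes, and 0 were called higher against 13.1%. The members' median log2 fold change was -1.54, beside -0.04 over all genes. Among Tspan8pos cells only Dst was called lower, where the share of all genes was 2.62% lower and 4.59% higher, and the median was -0.26 beside 0.01. Tspan8negMHCIIlow and Tspan8posMHCIIhigh differ in both markers. Their comparison called 5 members lower in Tspan8posMHCIIhigh (Itga3, Itgb4, Lamb3, Dst and Pdpn) and 0 higher, beside 10.3% and 14.4% of all genes. Itga3 sat at the fold limit there (SE 0.16, adjusted p = 0.000438) and lost its call under most alternatives. Tspan8posMHCIIlow and Tspan8negMHCIIhigh also differ in both markers, and between them 0 members were called by edgeR and by DESeq2. Of all genes, 14.6% were called lower and 14.7% higher. With edgeR, 2 members had an unadjusted p under 0.05. Dst was higher in Tspan8posMHCIIlow (log2 fold change 0.90, SE 0.19, adjusted p = 0.00197) and missed a call only by the fold limit. Itga6 was lower (-0.63, SE 0.21, adjusted p = 0.0258). Between these subsets, the 95% confidence interval of the log2 fold change ran from -0.37 to 0.79 for Lamb3 and from -0.68 to 1.19 for Pdpn. Changes of up to about the fold limit thus remained possible for both genes.

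**Figure D4:**
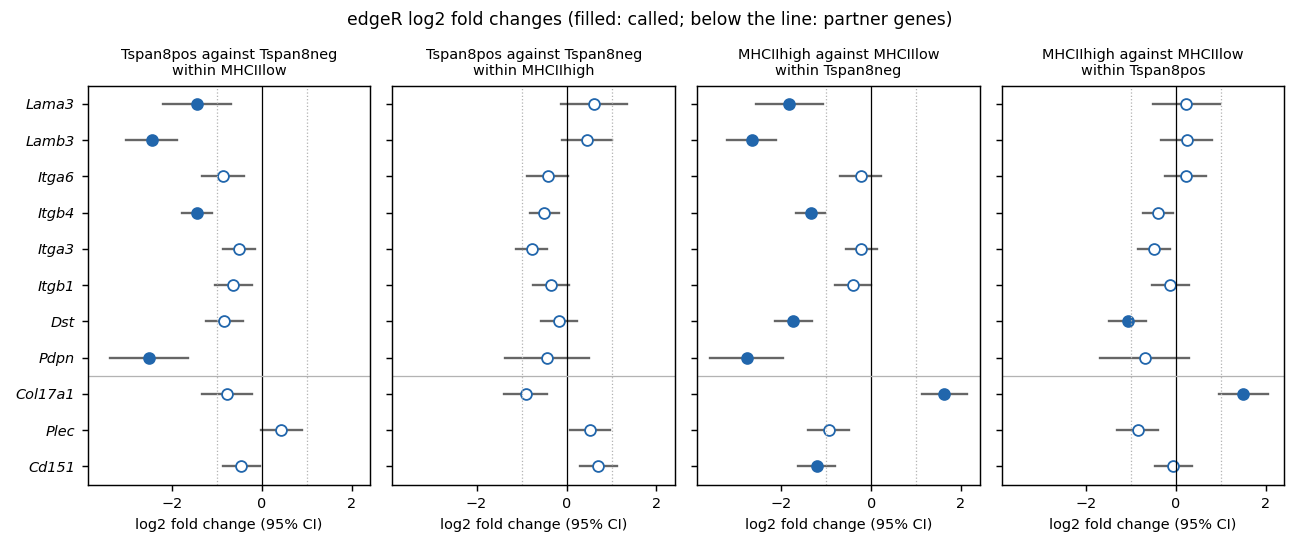
edgeR log2 fold changes (x axis, points) with 95% confidence intervals (lines) for the 8 members and, below the grey line, 3 partner genes, in the 4 comparisons within an MHCII or Tspan8 level. Filled points were called and dotted lines mark the fold limit. All 8 members lay below 0 in the first and the third panel, whereas Col17a1 was called higher in MHCIIhigh in the third and the fourth, at 1.63 and 1.496.

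These comparisons share libraries, the Tspan8negMHCIIlow pair in particular, and are not independent of each other. Whether the effect of Tspan8 differed between MHCII levels was tested by the interaction, the log2 fold change of Tspan8pos to Tspan8neg in MHCIIlow minus that in MHCIIhigh. Of all tested genes 2.24% were called lower and 2.36% higher in it, and of the members only Lamb3 was (-2.90, SE 0.36, adjusted p = 0.000807), a call that held under every alternative computed. Lama3 (-2.06, SE 0.48, adjusted p = 0.0185), Pdpn (-2.08, SE 0.58, adjusted p = 0.0412) and Itgb4 (-0.96, SE 0.21, adjusted p = 0.0144) had the same sign and missed the threshold. The interval of Itga3 (-0.23 to 0.76) and that of Itgb1 (-0.87 to 0.28) included 0.

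Other hemidesmosome genes moved in different directions. Col17a1, which encodes the transmembrane collagen XVII (BP180) bound by β4, had 46.9 and 52.1 CPM in Tspan8negMHCIIlow, 158 and 148 in Tspan8negMHCIIhigh, 76.9 and 86.15 in Tspan8posMHCIIhigh, and 41.8 and 21.3 in Tspan8posMHCIIlow. It rose with MHCII among Tspan8neg cells (log2 fold change 1.63, SE 0.23, adjusted p = 0.000218) and among Tspan8pos cells (1.496, SE 0.25, adjusted p = 0.00188), opposite in direction to Itgb4 and Dst. The second of these calls was lost without either Tspan8posMHCIIhigh library (1.59 and 1.41, adjusted p = 0.0109 and 0.0196) or replicate 2 of Tspan8posMHCIIlow (0.97, adjusted p = 0.0271). Plec, which encodes plectin and shares exons with Parp10 on the same strand, was highest in Tspan8posMHCIIlow with 839 and 729 CPM, followed by 692 and 471 in Tspan8negMHCIIlow, 437.5 and 429 in Tspan8posMHCIIhigh, and 358.5 and 246 in Tspan8negMHCIIhigh. It rose in Tspan8posMHCIIlow against Tspan8negMHCIIhigh (1.38, SE 0.21, adjusted p = 0.000246). Its values in MHCIIhigh against MHCIIlow were -0.95 among Tspan8neg and -0.85 among Tspan8pos cells, both short of a call. Cd151, a tetraspanin that associates with α3β1 and α6β4, fell in Tspan8negMHCIIhigh against Tspan8negMHCIIlow (-1.22, SE 0.19, adjusted p = 0.000387), a call lost without replicate 1 of Tspan8negMHCIIlow (-0.97) or replicate 2 of Tspan8negMHCIIhigh (-1.01, adjusted p = 0.0137).

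Of 7 other genes of basal keratinocytes, 5 were called lower and 1 higher in MHCIIhigh than in MHCIIlow among Tspan8neg cells. The shares of all tested genes were 9.67% and 13.1%. In Tspan8pos against Tspan8neg cells within MHCIIlow 2 were called lower and 1 higher, beside 9.34% and 12.1%. Within MHCIIhigh 0 were called lower and 3 higher, beside 7.45% and 11.0%. Krt14, a keratin of the basal layer, fell in the same comparisons as Lamb3, by 2.16 on the log2 scale (SE 0.24, adjusted p = 4.31e-05) in Tspan8negMHCIIhigh and by 1.85 (SE 0.24, adjusted p = 0.000104) in Tspan8posMHCIIlow, against Tspan8negMHCIIlow. Its pairing partner Krt5 had 2038 and 1370.0 CPM in Tspan8negMHCIIlow, 272 and 242 in Tspan8negMHCIIhigh, 1518 and 1460.0 in Tspan8posMHCIIhigh, and 1432 and 1344 in Tspan8posMHCIIlow. Only Tspan8negMHCIIhigh was low in Krt5, so that this gene rose in Tspan8pos against Tspan8neg cells within MHCIIhigh (log2 fold change 2.53, SE 0.18, adjusted p = 1.56e-06), where no member was called. Trp63, the transcription factor of basal epithelia, fell in Tspan8negMHCIIhigh against Tspan8negMHCIIlow (-1.28, SE 0.16, adjusted p = 0.00011), as did Cdh3, which encodes P-cadherin (-2.03, SE 0.26, adjusted p = 0.000106). Krt15 was the gene called higher within MHCIIlow and rose in Tspan8posMHCIIlow against Tspan8negMHCIIlow (2.56, SE 0.22, adjusted p = 5.01e-06).

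Of the 8 other laminin chains, 4 were called lower and 1 higher in Tspan8pos than in Tspan8neg cells within MHCIIlow, beside 9.34% and 12.1% of all tested genes. In MHCIIhigh against MHCIIlow among Tspan8neg cells, 4 were called lower and 2 higher, beside 9.67% and 13.1%. Lama5, an α chain of other epithelial laminins, had 387 and 296 CPM in Tspan8negMHCIIlow and 113 and 111 in Tspan8negMHCIIhigh (log2 fold change -1.61, SE 0.16, adjusted p = 1.79e-05). It was less reduced than Lama3 in Tspan8posMHCIIlow, with 268 and 244 CPM (-0.42, SE 0.15, adjusted p = 0.0469). Per length, the Lama3 to Lama5 ratio was 1.03 and 0.629 in Tspan8negMHCIIlow and 0.517 and 0.334 in Tspan8posMHCIIlow. It was 0.791 and 0.679 in Tspan8negMHCIIhigh and 0.778 and 0.4855 in Tspan8posMHCIIhigh, so that both MHCIIhigh subsets overlapped Tspan8negMHCIIlow. Lamb1 fell in Tspan8negMHCIIhigh against Tspan8negMHCIIlow by 2.11 (SE 0.19, adjusted p = 1.13e-05). Lama4, common in vessel walls, fell in Tspan8posMHCIIlow against Tspan8negMHCIIlow by 2.94 (SE 0.24, adjusted p = 3.73e-06). Lama1 went the other way, from 1.40 and 1.65 CPM in Tspan8negMHCIIlow to 15.8 and 16.9 in Tspan8negMHCIIhigh (3.39, SE 0.35, adjusted p = 2.7e-05).

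Among 15 other integrin subunits the calls were divided. In the Tspan8 comparison within MHCIIlow 3 were called higher and 3 lower, beside 12.1% and 9.34% of all tested genes. In the MHCII comparison among Tspan8neg cells 4 were called higher and 3 lower, beside 13.1% and 9.67%. Itgb8, which pairs with αv and activates latent TGF-β, was lowest where the members were highest, with 20.5 and 15.3 CPM in Tspan8negMHCIIlow and between 61.6 and 124 in all other libraries (2.10, SE 0.19, adjusted p = 1.28e-05, in Tspan8negMHCIIhigh). Itgb3 rose in the same comparison (1.66, SE 0.19, adjusted p = 6.49e-05). The fibronectin receptor subunit Itga5 fell in Tspan8posMHCIIlow against Tspan8negMHCIIlow (-1.75, SE 0.25, adjusted p = 0.000208), a call lost without replicate 2 of Tspan8posMHCIIlow (adjusted p = 0.0104). Itga8 fell in Tspan8posMHCIIhigh against Tspan8negMHCIIhigh, from 12.5 and 14.1 CPM to 1.79 and 1.83 (-2.86, SE 0.38, adjusted p = 0.000163), and had only 1 and 3 counts in the Tspan8posMHCIIlow libraries.

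Of 17 genes of the integrin adaptor machinery, 4 were called lower and 0 higher in the Tspan8 comparison within MHCIIlow, beside 9.34% and 12.1% of all tested genes. In the MHCII comparison among Tspan8neg cells 4 were called lower and 1 higher, beside 9.67% and 13.1%. The α-actinin gene Actn1 (-1.80, SE 0.15, adjusted p = 3.59e-06) and the integrin-linked kinase gene Ilk (-1.36, SE 0.15, adjusted p = 3.13e-05) fell in Tspan8posMHCIIlow, and the focal adhesion gene Zyx fell in Tspan8negMHCIIhigh (-1.81, SE 0.17, adjusted p = 1.32e-05), all against Tspan8negMHCIIlow. Fermt1, which encodes the epithelial integrin activator kindlin-1, ran against the members and rose from 68.8 and 47.4 CPM in Tspan8negMHCIIlow to 249.3 and 261.5 in Tspan8negMHCIIhigh (2.14, SE 0.18, adjusted p = 7.08e-06). Ilk, Zyx and Actn1 each overlap another gene on the opposite strand.

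Of 9 tested basement membrane partners, 4 were called lower and 1 higher in the Tspan8 comparison within MHCIIlow, beside 9.34% and 12.1% of all tested genes. In the MHCII comparison among Tspan8neg cells 2 were called lower and 1 higher, beside 9.67% and 13.1%. Bcam, which encodes a receptor for laminin α5, and Agrn, which encodes the heparan sulfate proteoglycan agrin, fell in Tspan8negMHCIIhigh against Tspan8negMHCIIlow by 2.42 (SE 0.20, adjusted p = 5.93e-06) and 1.87 (SE 0.15, adjusted p = 5.14e-06). The nidogens, which link laminin to collagen IV, did not follow the members: Nid1 rose in that comparison (1.93, SE 0.19, adjusted p = 1.93e-05), and Nid2 fell in Tspan8posMHCIIhigh against Tspan8negMHCIIhigh (-1.88, SE 0.22, adjusted p = 5.46e-05). Of 7 tested partners of podoplanin, 1 was called lower and 0 higher in MHCIIhigh than in MHCIIlow among Tspan8neg cells. The shares of all tested genes there were 9.67% and 13.1%. The called partner was Ccl21a, whose chemokine product binds podoplanin and draws T cells into the medulla. It had 4276 and 2832 CPM in Tspan8negMHCIIlow and between 217 and 628 elsewhere. On the log2 scale it fell by 4.004 in Tspan8negMHCIIhigh (SE 0.25, adjusted p = 1.32e-06). Reads of Ccl21a may be shared with near-identical copies. Other partners were divided: Msn (moesin) fell (-1.63, SE 0.17, adjusted p = 2.91e-05) and the tetraspanin gene Cd9 rose (1.18, SE 0.13, adjusted p = 4.78e-05) in Tspan8pos against Tspan8neg cells within MHCIIhigh, and Ezr (ezrin) rose in Tspan8pos cells within MHCIIlow (1.02, SE 0.16, adjusted p = 0.000433), which fell short of the fold limit without replicate 1 of either subset (0.876 and 0.884).

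Over the 8 libraries, the genes most like each member in log2 CPM were found among tested genes that averaged 10 CPM or more, leaving out the members. For Lamb3 these were Krt14 (Pearson's r = 0.991), Mtss1l (0.987) and Tbc1d25 (0.986), and for Dst they were Lamb1 (0.997), Arhgef17 (0.995) and Zfp827 (0.995). For Pdpn they were Mcam (0.993), Tagln2 (0.990) and Phldb2 (0.990), and for Itgb4 S1pr3 (0.996), Flna (0.996) and Lancl1 (0.995). For Lama3 they were S100a10 (0.984), Nhs (0.976) and Rbfox2 (0.975), for Itgb1 Map3k5 (0.992) and Nup62 (0.987), for Itga3 Ap2b1 (0.983), Tjap1 (0.978) and Pcdhgc3 (0.975), and for Itga6 Gm4841 (0.964), Syde2 (0.962) and Bmpr1a (0.961). The points are 4 pairs of libraries, in most of which Tspan8negMHCIIlow stands apart, so a high value largely restates that separation.

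Markers of other cell types moved with the same subset. The 6 thymocyte markers summed to 392 and 1091 CPM in Tspan8negMHCIIlow and to between 60.1 and 193 in the other libraries, with all 6 above the floor in every library, and the 4 B cell markers to 473 and 822 against 25.3 to 122. Both sums, like the fibroblast and myeloid sums below, were higher in replicate 2 of Tspan8negMHCIIlow. All 8 members were higher in replicate 1, as were the endothelial and cortical epithelial sums. The 6 endothelial markers summed to 144 and 112 CPM in Tspan8negMHCIIlow, 27.0 and 30.6 in Tspan8negMHCIIhigh, 19.3 and 27.4 in Tspan8posMHCIIhigh, and 99.5 and 74.3 in Tspan8posMHCIIlow, with Lyve1 at 0 in 3 libraries. Endothelial cells also express Itga6, Itgb1, Lama4 and Mcam, and lymphatic endothelium expresses Pdpn. The 7 fibroblast markers summed to 142 and 275 CPM in Tspan8negMHCIIlow, 200.5 and 198 in Tspan8negMHCIIhigh, 77.9 and 76.2 in Tspan8posMHCIIhigh, and 109 and 127 in Tspan8posMHCIIlow. This sum pools opposite directions. In Tspan8negMHCIIhigh against Tspan8negMHCIIlow, 3 fibroblast markers were called lower and 2 higher, beside 9.67% and 13.1% of all tested genes. Between these subsets, Dcn, Pdgfra, Lum, Col3a1 and Col1a2 had the higher mean in Tspan8negMHCIIlow, as Pdpn did. Col1a1 and Pdgfrb had it in Tspan8negMHCIIhigh. The sum of the 4 myeloid markers was lowest in Tspan8negMHCIIlow at 37.6 and 82.5 CPM and lay between 173 and 436 elsewhere. Of these, Lyz2 and Itgam had their lowest mean in Tspan8negMHCIIlow, but Csf1r and Adgre1 in Tspan8posMHCIIlow. Thymocyte markers were called lower in 5 of 6 genes and endothelial markers in 3 of 5 in Tspan8negMHCIIhigh against Tspan8negMHCIIlow, and in 3 of 6 and 1 of 5 in Tspan8posMHCIIlow. Of all tested genes, 9.67% and 9.34% were called lower in these comparisons. The 4 cortical epithelial markers, mostly Ctsl, summed to 1055 and 816 CPM in Tspan8negMHCIIlow and 239.8 to 468.5 elsewhere, and the 4 mesothelial markers, nearly all Msln, were between 200.3 and 976. The part of these cell types in the members' levels was not tested.

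**Figure D5:**
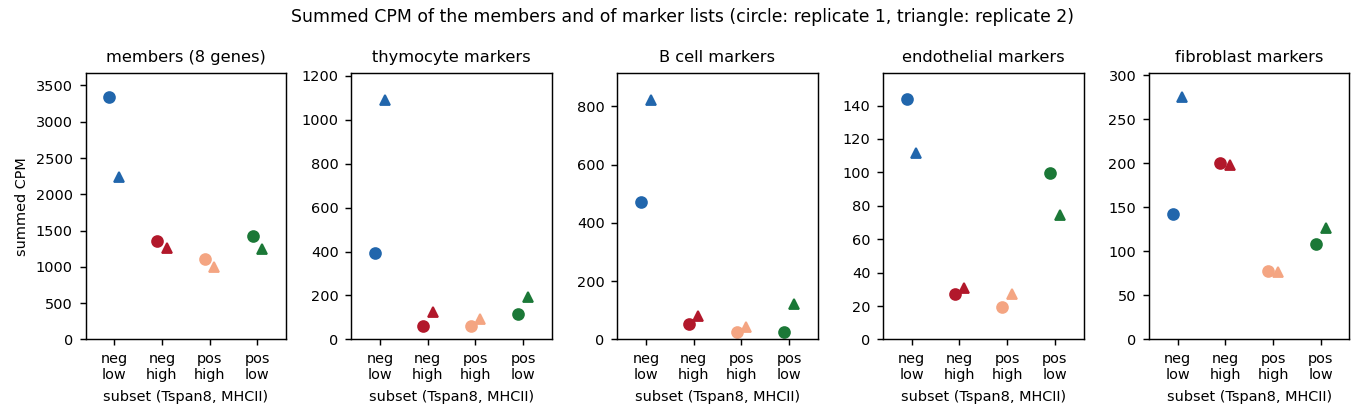
Summed CPM (y axes, linear from 0) of the 8 members and of marker lists for thymocytes, B cells, endothelial cells and fibroblasts in each library, by subset (x axis), with circles for replicate 1 and triangles for replicate 2. The members summed to 3344 and 2236 CPM in Tspan8negMHCIIlow and to between 1005 and 1429 elsewhere. In Tspan8negMHCIIlow the thymocyte, B cell and fibroblast sums were higher in replicate 2, whereas the members and the endothelial sum were higher in replicate 1.

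The leukocyte integrin subunits were examined for the same reason. Of 7, 3 were called lower and 1 higher in Tspan8posMHCIIlow against Tspan8negMHCIIlow, beside 9.34% and 12.1% of all tested genes. Itgax (-4.75, SE 0.79, adjusted p = 0.000692) and Itgb2 (-2.02, SE 0.45, adjusted p = 0.00406), subunits of dendritic cells and of leukocytes at large, fell, but Itgax lost its call without replicate 2 of Tspan8posMHCIIlow (adjusted p = 0.012), and Itgb2 without either Tspan8posMHCIIlow library or replicate 2 of Tspan8negMHCIIlow (adjusted p = 0.0167 to 0.0284). Itgam, in contrast, rose (3.81, SE 0.29, adjusted p = 2.61e-06), from 4.49 and 8.96 CPM to 90.7 and 101. Itgad had 0 counts in all 4 MHCIIlow libraries and reached 12.1 and 11.5 CPM in Tspan8negMHCIIhigh, at least 15.2-fold above the floor of 3 counts per library in Tspan8negMHCIIlow, and it shares exons with other genes. Of the genes named above, Krt5, Cd151, Bcam, Nid1, Nid2, Msn, Cd9, Ezr and Itga8 also overlap exons of a gene on the opposite strand, and Itgam those of one on its own strand.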

How the data were processed

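RNA-seq of 8 libraries of sorted mouse mTECs was analysed as the gene table that the authors deposited. It holds estimated counts per gene, written as whole numbers, which the authors made with Salmon 1.8.0 on mouse transcripts; the study names GENCODE and mm10, and the step from transcripts to genes is not given in the sources used here. The methods describe pre-amplified and tagmented cDNA while the labels name a stranded kit, so the use of strand was taken as unsettled and overlapping genes as uncertain. Pre-amplification means that counts are not independent molecules, so floors cover counting error only. Of 25466 identifiers, 25336 (99.49%) matched symbols of GENCODE vM21 on GRCm38, a later release than that of the authors. Groups were taken from the labels.

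Counts were normalised by TMM and tested with edgeR 4.0.16 (R 4.3.3, limma 3.58.1), using filterByExpr, 1 mean per subset over all 8 libraries, the quasi-likelihood test and Benjamini-Hochberg adjustment over 17006 genes. The biological coefficient of variation was 15.5%. Calls needed both an adjusted p under 0.01 and a log2 fold change of 1 or more in either direction. SE was derived from the fold change and its F statistic. Groups of 2 cannot reach significance in an exact permutation test, so tests rest on the spread shared over all genes, and p-values measure the spread between libraries. Level per length was computed from the counts and the union exon length. Scripts were tested on simulated data. Alternatives were DESeq2 1.42.0, its size factors, other filters, thinned counts, the compared libraries alone, a replicate block, other thresholds and leaving out each library.

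The members and gene lists were chosen with earlier results of these data known. Beside the members, genes were named as hemidesmosome or basal markers (Col17a1, Plec, Cd151, Trp63, Krt5, Krt14, Lama5), as up to 4 called genes per list with the smallest adjusted p in the comparisons within a Tspan8 or MHCII level, as the 3 genes most alike each member among those with a mean of at least 10 CPM (log2 CPM, prior count of 2), and as cell type markers; 1 gene that this rule names is not reported here. Promoter windows were read from RefSeq (GRCm38.p6).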

Additional observations from a re-analysis of the deposited data

Results flagged for a closer look

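The effect of Tspan8 differed between MHCII levels, by the edgeR interaction test, in Lamb3 and in 12 other genes of the fixed lists. Each value below is the log2 fold change of Tspan8pos to Tspan8neg in MHCIIlow minus that in MHCIIhigh, and 2.36% of all tested genes were called higher and 2.24% lower in this test. Lamb3 had -2.90 (SE 0.36, adjusted p = 0.000807), and the basal epithelial genes Krt5 (-2.83, adjusted p = 0.000183), Krt14 (-2.29, adjusted p = 0.00174), Trp63 (-1.60, adjusted p = 0.00174) and Cdh3 (-1.98, adjusted p = 0.0057) shared its sign. Over 14 alternatives the call held in all for Lamb3 and Krt5, in 11 for Krt14, in 10 for Trp63 and in 8 for Cdh3, with losses on leaving out single libraries (adjusted p up to 0.0178, 0.0196 and 0.0472). In Krt5 the value came from a rise within MHCIIhigh (2.53), with -0.30 (adjusted p = 0.185) within MHCIIlow, whereas in Krt14 it came from a fall within MHCIIlow (-1.85), with 0.44 (adjusted p = 0.158) within MHCIIhigh, as in Lamb3.

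The other laminin chains were Lama4 (-1.62, adjusted p = 0.00842), Lama5 (-1.27, adjusted p = 0.00416) and, with the opposite sign, Lama1 (2.97, adjusted p = 0.0024). Of the basement membrane and podoplanin partners, Agrn (-1.58, adjusted p = 0.000977), Bcam (-1.98, adjusted p = 0.00191) and Ccl21a (-3.54, adjusted p = 0.000234) were negative. The integrin subunits Itgb8 (1.32, adjusted p = 0.00818) and Itga11 (5.72, SE 1.16, adjusted p = 0.00974) were positive, and Itga11 had only 1 and 0 counts in the Tspan8negMHCIIlow libraries, so that the size of its value depends on the fitted prior. Of these calls, that of Ccl21a held in all 14 alternatives and that of Agrn in 13, whereas those of Lama1 and Bcam held in 8, Lama5 in 7, Itgb8 in 6, Lama4 in 5 and Itga11 in 5 of 13. The highest adjusted p was 0.245 for Lama1, 0.102 for Bcam, 0.0341 for Lama5, 0.264 for Itgb8, 0.0771 for Lama4 and 0.0567 for Itga11, while the sign held throughout.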

How the results depend on the processing

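Of the members' log2 fold changes, 417 of 448 kept their direction and side of the threshold on leaving out 1 library, and 368 of 384 under the other alternatives. Genes named from the other lists kept theirs in 220 of 264 and 212 of 221, settings added once the values were known. With thinned counts, Itgb3 (1.305, edgeR adjusted p = 0.0106) and Itgb2 (-1.54, adjusted p = 0.0702) lost their calls. The numbers of called genes in those lists were less stable. They moved in 104 of 448 settings without 1 library and in 54 of 496 others. With no limit on the fold change, 1 member was called in Tspan8pos against Tspan8neg within MHCIIhigh (Itga3, lower) and 1 in Tspan8posMHCIIlow against Tspan8negMHCIIhigh (Dst, higher). The interaction called 2 members with no filter on low counts, 3 at an adjusted p under 0.05 and 3 with the replicate block, which added Lama3 (-1.96) and Pdpn (-1.94). The labels do not say whether replicate numbers pair the libraries, and deviations of same-numbered libraries correlated at only 0.004 to 0.0924. The block changed no other count of members, although in Tspan8posMHCIIhigh against Tspan8negMHCIIlow it called Lama3 (-1.15) in place of Itga3 (-0.99). Without 1 library, the count of called members ranged from 2 to 6 for Tspan8 within MHCIIlow, from 0 to 1 for MHCII within Tspan8pos and from 1 to 4 for the interaction. In Tspan8posMHCIIhigh against Tspan8negMHCIIlow, Itga3 ranged from -0.99 to -0.93 and lost its call under 6 alternatives beside leaving out libraries. With the longest transcript, the mean level per length was 193 for Itga6 and 44.6 for Dst. The causes were not tested.

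Reversals concerned only fold changes that were not called. With counts thinned to the smallest library, Lama3 for MHCII within Tspan8pos was -0.014 and Itgb4 in Tspan8posMHCIIlow against Tspan8negMHCIIhigh was 0.011. Without 1 library, Itga6 for MHCII within Tspan8neg ranged from -0.56 to 0.15, and for MHCII within Tspan8pos Lama3 ranged from -0.13 to 0.65, Lamb3 from -0.22 to 0.68, Cd151 from -0.19 to 0.089 and Krt14 from -0.098 to 0.41. In Tspan8posMHCIIlow against Tspan8negMHCIIhigh, Itgb4 ranged from -0.28 to 0.005, Lama3 from -0.014 to 0.76, Lamb3 from -0.20 to 0.68 and Pdpn from -0.23 to 0.92. Krt5 ranged from -0.56 to 0.011 for Tspan8 within MHCIIlow and from -0.45 to 0.14 in Tspan8posMHCIIhigh against Tspan8negMHCIIlow, and for the interaction Col17a1 ranged from -0.34 to 0.66 and Plec from -0.36 to 0.22. Depth limits Pdpn most, with 29 counts in its shallowest library.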
